A study of Mus musculus with 3 samples.

Results

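Immediate early genes are switched on within minutes of a stimulus without any new protein being made first. Their promoters carry sites for factors that are already in the cell and wait for a signal, such as CREB and the serum response factor, and most of their RNAs are short-lived. Many encode transcription factors (AP-1, Egr, Nr4a), others shut the response down again (phosphatases of MAP kinases, RNA decay factors), and the enzymatic dissociation of tissue into single cells is known to induce them. The genes described here are 34 such genes, taken by symbol from the 55450 features of the deposited tables, and all 34 had at least 1 UMI (unique molecular identifier, 1 captured RNA molecule) in the cells used. They held 0.360% of all deposited UMIs in the library labelled none, 0.443% in diabetic sedentary and 0.481% in diabetic exercise. These shares pool all barcodes, and the mix of cell types differed between libraries, so they do not give the level within a type.

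Single cells of mouse pancreas were measured in 3 droplet libraries, 1 per group and without replicates. The study concerns male db/db mice, whose leptin receptor does not work and which grow obese and diabetic, and asks how treadmill training started at 6 weeks of age acts on their pancreas. The groups were none (no disease named, sedentary), diabetic sedentary and diabetic exercise. The sources used here do not give the genotype and age of the mice behind none, the length of training or how many animals were pooled, nor what the 3 at the end of each title means. Values are given in the order none, diabetic sedentary, diabetic exercise throughout. Genotype, training, dissociation and the handling of a library cannot be told apart here, and every interval covers counting error only, since UMIs of 1 library say nothing of the spread between animals.

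The libraries held 9958, 12743 and 18433 barcodes with 54128454, 80185752 and 45209034 UMIs, of which 8711, 11019 and 15069 cells were kept. Barcodes shared between pairs of libraries numbered 32 to 61. Cells were assigned to types by clustering without the 34 genes and by fixed markers. The 5 types with at least 50 cells in every library were acinar-like (6343, 7785 and 8313 cells), ductal-like (204, 783 and 1194), endothelial-like (122, 549 and 377), fibroblast-like (298, 540 and 329) and macrophage-like (341, 237 and 230). Mural-like cells, which wrap vessels, had 145 and 88 in the diabetic libraries and only 44 in none, so they enter the exercise comparison alone. The libraries took their acinar-like cells from different clusters, mostly clusters 2 and 5 in none (4128 and 1970 cells), clusters 1, 4 and 7 in diabetic sedentary (3447, 1562 and 1196) and clusters 3 and 4 in exercise (3034 and 1798). Ductal-like cluster 14, led by Onecut2, Tspan8 and Krt19, held 1, 194 and 331 cells. The macrophage-like cluster was led by Lyz2, C1qa and C1qb together with the MHC class II genes Cd74, H2-Aa, H2-Ab1 and H2-Eb1 and with Retnla and Cxcl2. Clusters led by mitochondrial genes, by Neat1, by cell cycle genes or by immunoglobulins stayed unnamed and were not used, and the mitochondrial one held 20, 370 and 4230 barcodes.

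The stretches of promoter below show the response elements that the results return to, for 2 AP-1 genes, the nuclear receptor Nr4a1, the phosphatase Dusp1 and 2 RNA decay factors. RefSeq gave a promoter window, 250 bases before the gene's start, for 29 of the 34 genes, with Egr1, Egr3, Fosl1, Ier2 and Myc missing. Sequences are RefSeq's, build GRCm38.p6, printed 5′ to 3′ on the gene's strand. Capitals mark every match, on either strand, to the core of the cAMP response element (CRE, TGACG), the full CRE (TGACGTCA, which holds the core), the Egr site (GCGNGGGCG), the AP-1 site (TGANTCA) or the serum response element (CArG box).
Fos, chr12:85473750-85473849, plus strand, 140 to 41 bases upstream: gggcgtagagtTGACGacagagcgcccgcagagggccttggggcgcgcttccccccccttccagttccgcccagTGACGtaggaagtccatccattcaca
Fosb, chr7:19310066-19310125, minus strand, 80 to 21 bases upstream: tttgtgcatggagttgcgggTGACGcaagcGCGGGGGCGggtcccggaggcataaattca
Nr4a1, chr15:101266766-101266825, plus strand, 80 to 21 bases upstream: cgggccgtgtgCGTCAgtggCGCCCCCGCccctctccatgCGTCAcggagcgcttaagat
Dusp1, chr17:26508603-26508672, minus strand, 200 to 131 bases upstream: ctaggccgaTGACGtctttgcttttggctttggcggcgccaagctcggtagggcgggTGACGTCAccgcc
Zfp36, chr7:28379269-28379348, minus strand, 120 to 41 bases upstream: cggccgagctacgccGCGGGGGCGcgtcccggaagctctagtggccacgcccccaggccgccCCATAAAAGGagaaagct
Btg2, chr1:134079266-134079335, minus strand, 180 to 111 bases upstream: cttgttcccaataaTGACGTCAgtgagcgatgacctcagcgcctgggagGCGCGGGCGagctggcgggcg
All 6 stretches lie upstream of the RefSeq start, and those of Nr4a1, Dusp1 and Zfp36 fall inside the longer GENCODE gene. The core of the CRE was in 15 of the 29 windows (51.7%) against 19.8% of the 27025 genes with a window, and the full CRE in 4 (13.8%) against 1.77%, namely Btg2, Dusp1, Maff and Ppp1r15a. Egr sites were in 11 windows (37.9%) against 5.33% of genes, and the stretches of Btg2, Nr4a1 and Fosb show both kinds. Within the 250 bases searched, only Egr2 and Zfp36 held a serum response element (6.90% against 1.62%). The AP-1 site was in 2 windows (6.90% against 7.82%), those of Csrnp1 and Zfp36l1. Sites farther upstream, and the genes without a window, were not searched, so a missing match does not mean that a gene lacks the element. A match describes letters and is not a site shown to be bound in these cells.

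By summed level, immediate early RNA was lower in the exercise library than in the diabetic sedentary library in all 6 types with TMM scaling, and in all but acinar-like cells without it. UMIs were summed per type and library and scaled with TMM factors to CPM, the usual library-size unit, separately for each type. All 34 genes together stood at 31164, 28650.1 and 21368 CPM in ductal-like, 21041, 17394 and 15754 in macrophage-like, 18016, 17331 and 7981 in fibroblast-like and 16684, 14145 and 8234 in endothelial-like cells. They stood at 1776, 1193 and 861 CPM in acinar-like cells and at 14804 and 9251 in the mural-like cells of the diabetic libraries. Acinar-like cells held the least, beside acinar marker RNA that took 84.5%, 84.9% and 77.5% of their UMIs. None and diabetic sedentary lay closer to each other than either lay to exercise in endothelial-like and fibroblast-like cells. The same held in ductal-like cells with TMM scaling but not without it. Without TMM factors the sums were 13992, 15135 and 9175 CPM in endothelial-like, 15028, 17599 and 9422 in fibroblast-like, 26709, 29287 and 24391 in ductal-like and 17481, 18791 and 17553 in macrophage-like cells, so that none lay below diabetic sedentary in these 4 types, where with TMM factors it lay above. In acinar-like cells they were 1642, 977 and 1138, with the order of the diabetic libraries turned.

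Gene by gene, fibroblast-like cells had the most members past the fold between exercise and diabetic sedentary. A member was measured in a type where it had at least 20 UMIs over both libraries, and a ratio of CPM of at most 1/1.5 or at least 1.5 was counted as past the fold. Of 32 members measured in fibroblast-like cells, 26 were lower past the fold and 1 (Egr3) was higher, where 13.5% and 10.4% of all genes measured were lower and higher. The median log2 ratio was -1.17, against -0.05 for all genes measured. In endothelial-like cells 20 of 32 were lower and 0 higher (16.2% and 11.6% of all genes), with a median of -0.77 against -0.08. Ductal-like cells had 14 of 33 lower and 1, Fosb, higher (6.38% and 9.24%), with a median of -0.55 against -0.02. In mural-like cells 13 of 26 were lower and 2 higher (24.7% and 12.8%), with a median of -0.62 against -0.11. Macrophage-like cells had 7 of 32 members lower and 4 higher (11.6% and 12.0%), with a median of -0.18 against -0.01. The 4 higher members there were the Kruppel-like factors Klf2, Klf4 and Klf6 and the phosphatase Dusp6.

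How many members passed the fold varied with the processing. Over all settings, with a fold of 2 among them, the lower members numbered 19 to 27 in fibroblast-like, 9 to 25 in endothelial-like, 8 to 19 in ductal-like, 5 to 17 in mural-like, 3 to 12 in macrophage-like and 0 to 15 in acinar-like cells. Without TMM factors, 6 of the 13 lower calls in mural-like cells ended (Fos, Junb, Jund, Atf3, Egr1 and Ier5), 2 of 14 in ductal-like (Atf3 and Csrnp1), 2 of 20 in endothelial-like (Klf2 and Zfp36), 1 of 26 in fibroblast-like (Ier3) and 0 of 7 in macrophage-like cells. A mean over cells of CPM, in which every cell weighs the same, ended 3 of the 4 higher calls in macrophage-like cells (Klf2, Klf4 and Klf6), those of Fosb in ductal-like and Egr3 in fibroblast-like cells, and 4 lower calls in mural-like cells (Fos, Atf3, Egr1 and Csrnp1).

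Acinar-like cells had 10 of 33 members lower and 2 higher (10.2% and 15.3% of all genes), with a median of -0.33 against -0.06. Their direction rests on the scaling, and 9 of the 10 lower calls ended without TMM factors and all 10 as a mean over cells. Without TMM factors the median of the members was 0.36 and that of all genes 0.63, a difference of -0.27 with either scaling. The plot of log2 ratios by gene and type shows the members of fibroblast-like and endothelial-like cells lower nearly throughout and those of macrophage-like cells mixed.

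**Figure D1:**
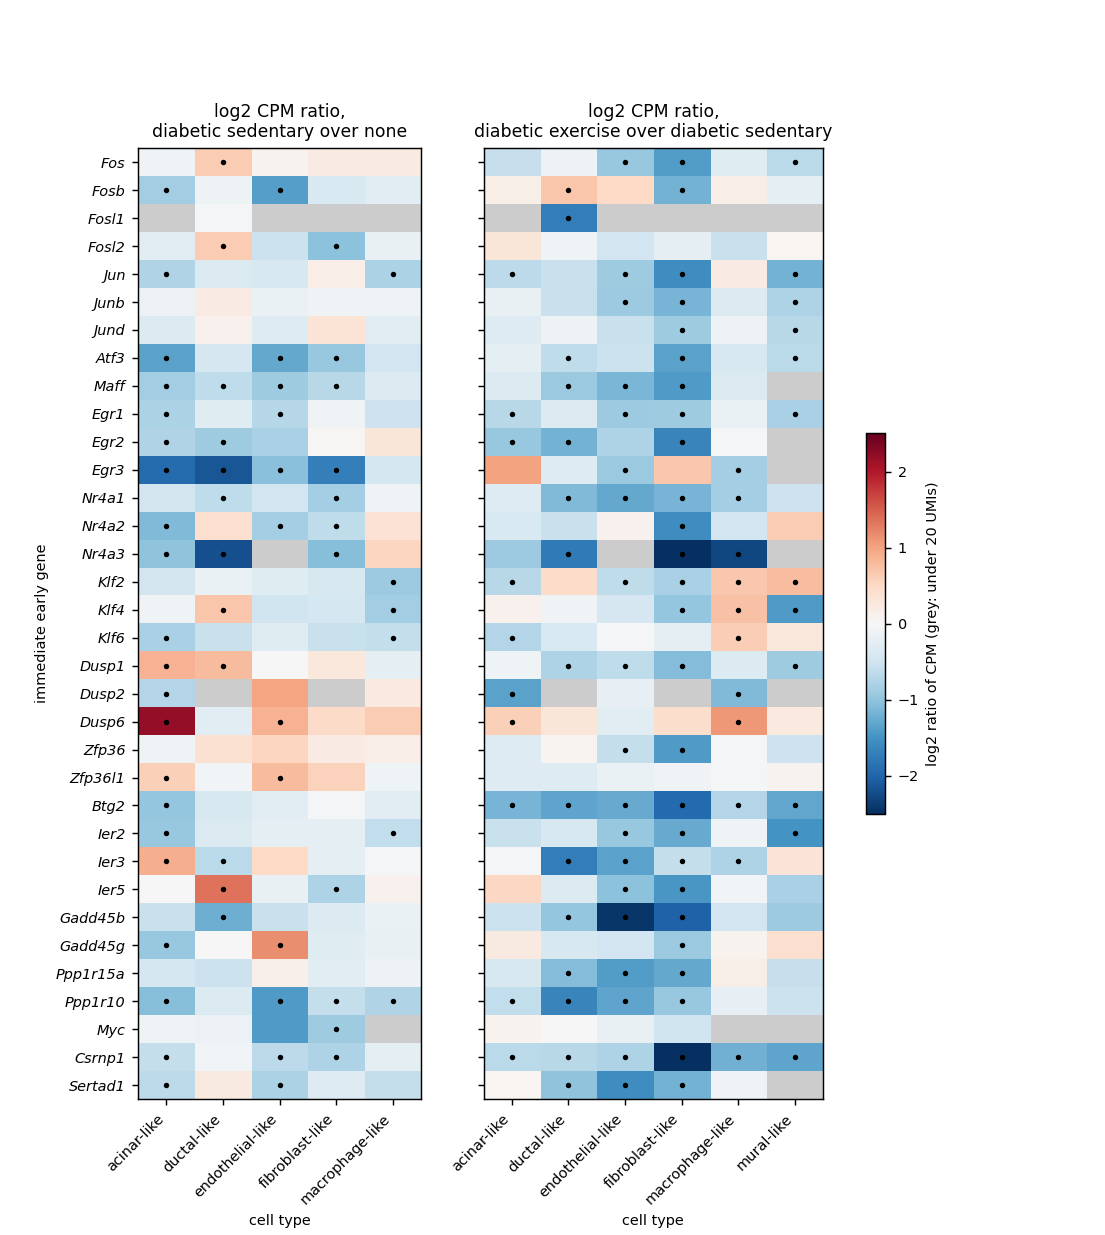
Log2 ratio of CPM for each of the 34 genes (vertical axis, gene) in each cell type (horizontal axis), diabetic sedentary over none on the left and diabetic exercise over diabetic sedentary on the right, from 1 library per group. Blue is lower, red is higher, colours end at log2 ratios of -2.5 and 2.5, grey has under 20 UMIs, and a dot marks a ratio past 1.5-fold whose counting interval does not include 1; in the right panel the fibroblast-like column holds 26 such lower genes (7.21% of all genes measured there) and the macrophage-like column 7 (5.03%).

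Other measures moved with the exercise library, and their part in these ratios was not tested. Median UMIs per cell were 2497 in diabetic sedentary and 1966 in exercise for endothelial-like cells, 3082 and 2452 for fibroblast-like, 5512 and 2973 for ductal-like, 3757 and 2388 for macrophage-like and 6131 and 2086 for acinar-like cells. The median share of mitochondrial UMIs was 4.48% and 7.66% in endothelial-like, 3.83% and 6.1% in fibroblast-like and 3.47% and 5.89% in macrophage-like cells, after 1.24%, 1.18% and 0.936% in none. RNA of acinar origin in the droplets of other types was estimated from the acinar markers at 63.8%, 44.3% and 50.6% of UMIs in endothelial-like cells and 57.3%, 44.7% and 41% in fibroblast-like cells. For macrophage-like cells the estimate was 53.1%, 37.5% and 38.2%, and for ductal-like cells 44.6%, 29.2% and 27.6%. With that RNA subtracted the exercise medians were -0.70 in endothelial-like and -1.21 in fibroblast-like cells, and with every cell thinned to 1000 UMIs they were -0.91 and -1.31.

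For diabetic sedentary over none the medians lay nearer 0 than for exercise over diabetic sedentary in ductal-like, endothelial-like and fibroblast-like cells and farther from it in acinar-like cells. Both comparisons share the diabetic sedentary library, so its own deviation enters them with opposite sign, and their values are set side by side only. In acinar-like cells 17 of 33 members were lower and 4 higher (11.3% and 12.4% of all genes), with a median of -0.60 against 0.02. In endothelial-like cells 11 of 32 were lower and 4 higher (13.8% and 21.2%), with a median of -0.36 against 0.05. Fibroblast-like cells had 11 of 32 lower and 0 higher (11.9% and 15.3%), with a median of -0.33 against 0.02. In macrophage-like cells 7 of 32 were lower and 1 higher (13.3% and 13.3%), with a median of -0.20 against -0.01. Ductal-like cells had 7 of 33 lower and 5 higher (10.1% and 14.7%), with a median of -0.17 against 0.03. Since acinar-like cells of the libraries came from different clusters, the acinar median was also taken with clusters weighted as in none, where it was 0.016. That weighting draws mostly on clusters 2 and 5, where diabetic sedentary had only 96 and 46 cells. The members had medians of -0.43 and 0.20 in these 2 clusters, and all genes 0.29 and 0.41. Under this weighting too the members' median lay below that of all genes. Without TMM factors the other medians were 0.087 in ductal-like, -0.0066 in endothelial-like, -0.051 in fibroblast-like and 0.18 in macrophage-like cells, where all genes shifted up by 0.25, 0.35, 0.28 and 0.38. Exercise over none, which shares a library with each, had medians of -0.84, -0.70, -1.04, -1.39 and -0.58 in acinar-like, ductal-like, endothelial-like, fibroblast-like and macrophage-like cells. Without TMM factors these were -0.32, -0.29, -0.63, -0.89 and -0.15, where all genes shifted up by 0.52, 0.41, 0.41, 0.50 and 0.42.

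Many single calls of diabetic sedentary over none also rest on the scaling or on the mix of clusters. Without TMM factors all 7 lower calls in macrophage-like cells ended (Jun, Klf2, Klf4, Klf6, Ier2, Ppp1r10 and Sertad1), as did 6 of 11 in endothelial-like (Maff, Egr1, Egr2, Nr4a2, Csrnp1 and Sertad1), 6 of 11 in fibroblast-like (Maff, Nr4a1, Nr4a2, Ier5, Ppp1r10 and Csrnp1), 3 of 7 in ductal-like (Maff, Nr4a1 and Ier3) and 0 of 17 in acinar-like cells. As a mean over cells 7, 6, 6, 3 and 0 ended in the same types. With clusters weighted as in none, 10 of the 17 lower calls in acinar-like cells ended (Fosb, Jun, Egr1, Egr2, Egr3, Nr4a3, Klf6, Btg2, Ier2 and Ppp1r10) and 4 of the 5 higher calls in ductal-like cells (Fos, Fosl2, Klf4 and Ier5). For acinar-like cells this rests mostly on the 96 and 46 diabetic sedentary cells of clusters 2 and 5, where all genes shifted up. Over all settings the lower members numbered 5 to 23 in acinar-like, 5 to 13 in endothelial-like, 3 to 13 in fibroblast-like, 0 to 8 in macrophage-like and 3 to 8 in ductal-like cells. The higher members numbered 1 to 6, 1 to 6, 0 to 6, 0 to 5 and 1 to 7 in the same order.

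The Fos family supplies one arm of the AP-1 dimer. Fos itself, the member with 2 CRE cores in the stretch shown, was lower in exercise in fibroblast-like, endothelial-like and mural-like cells and nearly level in ductal-like cells. It stood at 2029, 3163 and 2905 CPM in ductal-like cells, 1665, 1914 and 1545 in macrophage-like, 1820.2, 1924 and 992 in endothelial-like, 1772, 2055 and 778 in fibroblast-like, 2383 and 1483 in mural-like and 178, 168 and 113 in acinar-like cells. In ductal-like cells both diabetic libraries lay above none. The exercise ratio (with its 95% interval in parentheses) was 0.379 (0.353 to 0.406) in fibroblast-like, 0.516 (0.480 to 0.554) in endothelial-like and 0.622 (0.552 to 0.700) in mural-like cells, and 0.918 (0.900 to 0.937) in ductal-like cells. Over none, diabetic sedentary had 1.56 (1.5 to 1.63) in ductal-like cells, a log2 ratio of 0.64 that fell to 0.24 with clusters weighted as in none and so left the fold.

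Fosb, whose protein lasts longer as a splice form, had different orders by type. Its level was at 1134, 871 and 386 CPM in fibroblast-like cells, 446, 173 and 244 in endothelial-like, 704 and 598 in mural-like, 664, 556 and 628 in macrophage-like, 985, 897 and 1444 in ductal-like and 93.8, 51.3 and 56.7 in acinar-like cells. Exercise was the highest of the 3 libraries in ductal-like cells and the lowest in fibroblast-like cells. The exercise ratio was 1.61 (1.56 to 1.67) in ductal-like (a log2 ratio of 0.57 as a mean over cells and 0.47 with clusters weighted as in diabetic sedentary, both within the fold), 1.41 (1.19 to 1.67) in endothelial-like and 0.443 (0.400 to 0.490) in fibroblast-like cells. In endothelial-like cells none lay above both diabetic libraries, with a ratio of 0.388 (0.320 to 0.472) for diabetic sedentary. Fosl2, a Fos relative with a slower course, stood at 2.37, 1.95 and 2.41 CPM in acinar-like cells, 32.0, 50 and 46.7 in ductal-like, 125, 87.1 and 61.8 in endothelial-like, 154, 76.0 and 64.7 in fibroblast-like, 173, 151 and 103 in macrophage-like and 83.0 and 85.9 in mural-like cells. None of its 6 exercise ratios passed the 1.5-fold bound, the lowest being 0.681 (0.521 to 0.885) in macrophage-like cells. Over none, it was lower in fibroblast-like cells at 0.493 (0.392 to 0.619) and higher in ductal-like cells at 1.56 (1.12 to 2.24), the latter within the fold with clusters weighted (log2 0.53) and the former as a mean over cells (log2 -0.48). Fosl1, the fourth member, was measured in ductal-like cells alone, where 5, 25 and 8 UMIs were found, and had at most 3 UMIs in any other type and library.

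Jun, Junb and Jund pair with the Fos proteins, and Jund is the member that resting cells already hold. Jun stood at 3302, 2564 and 1749.6 CPM in ductal-like cells, 1345, 773 and 895 in macrophage-like, 1612, 1229 and 659 in endothelial-like, 1484, 1659 and 566 in fibroblast-like, 1122 and 493 in mural-like and 186, 109.7 and 69.5 in acinar-like cells. In macrophage-like cells none was high and the diabetic libraries close together, while in fibroblast-like cells none and diabetic sedentary were close together and exercise low. The exercise ratio was 0.341 (0.314 to 0.370) in fibroblast-like, 0.439 (0.359 to 0.535) in mural-like and 0.536 (0.490 to 0.586) in endothelial-like cells, against 1.16 (1.05 to 1.28) in macrophage-like cells. Without TMM factors the acinar-like ratio of 0.633 (0.601 to 0.667) turned to a log2 ratio of 0.032.

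Junb, an AP-1 subunit that restrains Jun, differed little between none and diabetic sedentary. It stood at 1772, 1669.8 and 742 CPM in fibroblast-like cells, 1288, 1152 and 617 in endothelial-like, 1177 and 691 in mural-like, 1677, 1556 and 1233 in macrophage-like, 2269, 2600.1 and 1773 in ductal-like and 57.7, 52.0 and 45.5 in acinar-like cells. Exercise lay below diabetic sedentary in each type, though in acinar-like cells only with TMM scaling. Ratios of exercise ran from 0.444 (0.413 to 0.477) in fibroblast-like to 0.792 (0.733 to 0.856) in macrophage-like cells outside acinar-like cells, while those of diabetic sedentary over none all lay within the 1.5-fold bound. Jund stood at 183, 144 and 115 CPM in acinar-like cells, 2302, 2483 and 2287 in ductal-like, 1108, 887 and 599 in endothelial-like, 1390.2, 1754 and 953 in fibroblast-like, 1456, 1197 and 1095 in macrophage-like and 1497 and 919 in mural-like cells. In ductal-like cells the 3 libraries lay close together, and in fibroblast-like and mural-like cells exercise was the low one. Its exercise ratio was 0.543 (0.509 to 0.580) in fibroblast-like and 0.614 (0.527 to 0.713) in mural-like cells, and over none Jund was past the fold in no type.

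**Figure D2:**
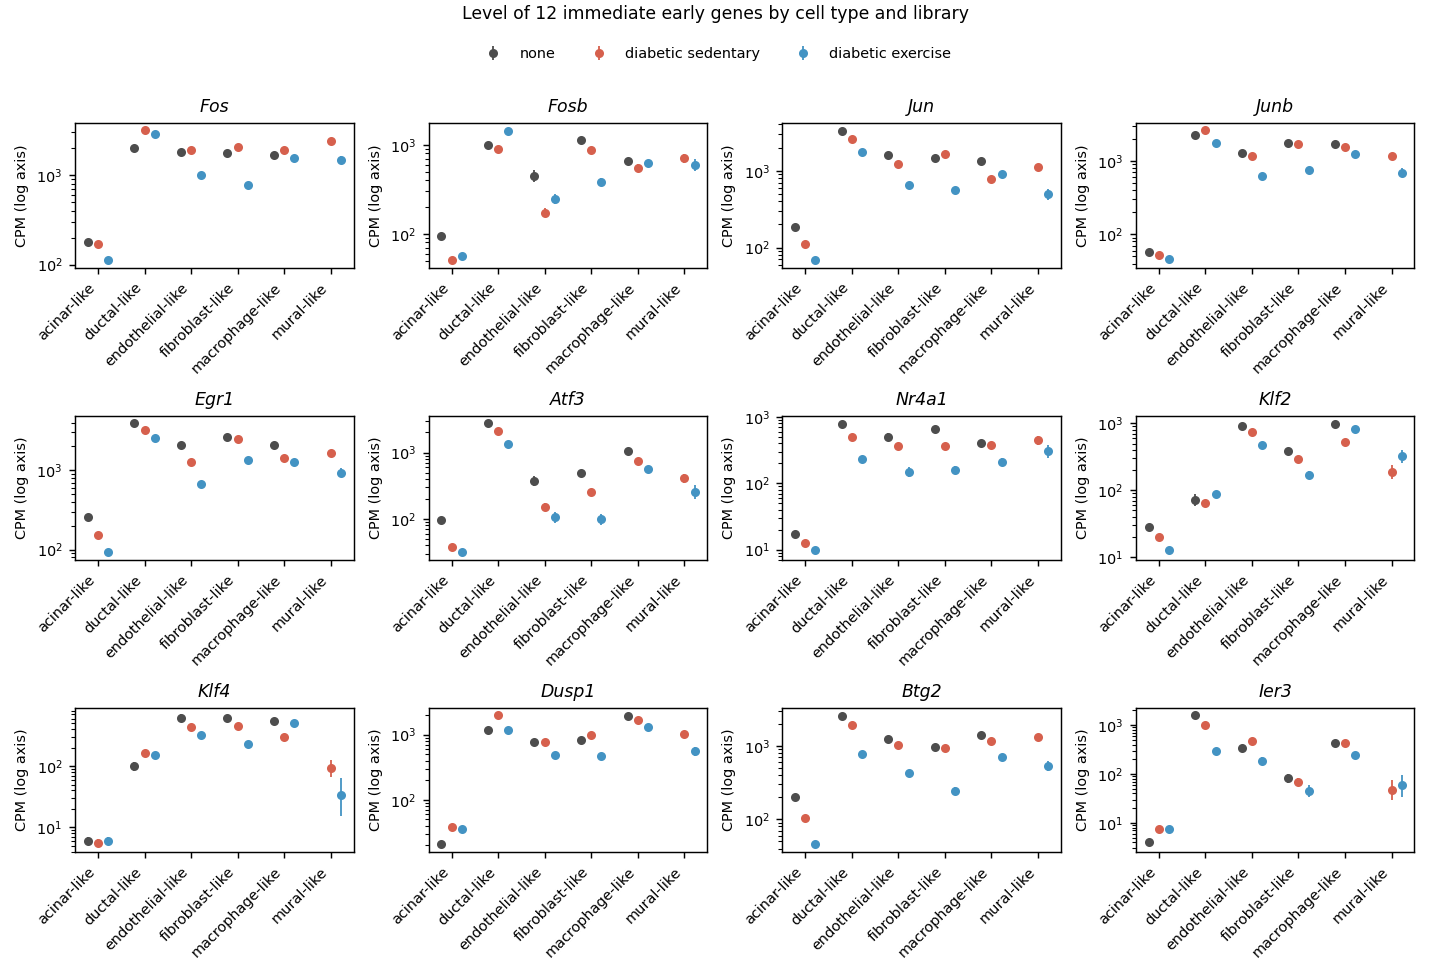
CPM (vertical, log axis) of 12 of the 34 genes in the 6 cell types (horizontal axis), 1 point per library with its 95% Poisson interval: none in grey, diabetic sedentary in red, diabetic exercise in blue, and no mural-like value for none. Points of exercise sit lowest for Btg2 in all 6 types and highest for Fosb in ductal-like cells, at 1444 CPM.

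Atf3, a stress-induced partner of AP-1 that mostly represses, was highest in none in every type with a value for it. It stood at 2768, 2080.4 and 1338 CPM in ductal-like cells, 1043, 749 and 566 in macrophage-like, 371, 154 and 106 in endothelial-like, 484, 253 and 99.1 in fibroblast-like, 410.1 and 258 in mural-like and 96.2, 38.1 and 32.4 in acinar-like cells. Exercise was the lowest in all 5 types with 3 libraries, in acinar-like cells only with TMM scaling. Exercise ratios were 0.392 (0.320 to 0.477) in fibroblast-like and 0.643 (0.625 to 0.661) in ductal-like cells, and those over none were 0.397 (0.375 to 0.419) in acinar-like and 0.414 (0.336 to 0.513) in endothelial-like cells. In mural-like cells 20.9% of the UMIs of diabetic sedentary came from 1 cell. The small Maf protein Maff, which has no activation domain and whose promoter window held a full CRE, stood at 60, 37.3 and 13.6 CPM in fibroblast-like cells, 69.3, 37.9 and 16.8 in endothelial-like, 22.6 and 14.9 in mural-like, 32.1, 25.1 and 19.3 in macrophage-like, 214, 138 and 72.8 in ductal-like and 5.41, 2.98 and 2.34 in acinar-like cells. In ductal-like, endothelial-like and fibroblast-like cells none was highest and exercise lowest, although UMIs outside ductal-like and acinar-like cells numbered at most 81. Exercise ratios were 0.528 (0.470 to 0.592) in ductal-like, 0.442 (0.240 to 0.768) in endothelial-like and 0.364 (0.202 to 0.620) in fibroblast-like cells.

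Egr proteins are zinc finger factors that bind the Egr site marked above. Egr1, the most abundant of them by UMIs, stood at 259.5, 151 and 92.9 CPM in acinar-like cells, 3938, 3199 and 2522 in ductal-like, 2081, 1264 and 674 in endothelial-like, 2606, 2461 and 1335 in fibroblast-like, 2061, 1437 and 1286 in macrophage-like and 1638 and 937 in mural-like cells. Exercise was the lowest library in all 5 types with 3 values. The exercise ratio was 0.533 (0.488 to 0.582) in endothelial-like, 0.543 (0.513 to 0.573) in fibroblast-like, 0.572 (0.493 to 0.663) in mural-like and 0.616 (0.589 to 0.644) in acinar-like cells, and 0.895 (0.828 to 0.967) in macrophage-like cells. Egr2 stood at 139, 75.6 and 33.4 CPM in ductal-like cells, 93.6, 116 and 113 in macrophage-like, 44.3, 25.6 and 14.7 in endothelial-like, 60, 61.3 and 19.2 in fibroblast-like, 27.7 and 26.1 in mural-like and 9.06, 5.35 and 2.75 in acinar-like cells. The diabetic libraries were near each other in macrophage-like cells, at 0.976 (0.742 to 1.28), where in ductal-like and fibroblast-like cells the exercise ratios were 0.442 (0.374 to 0.522) and 0.313 (0.194 to 0.486). Egr3 was highest in endothelial-like cells in each library and stood at 36.2, 11.1 and 17.6 CPM in fibroblast-like cells, 152, 74.2 and 38.8 in endothelial-like, 7.55 and 3.73 in mural-like, 50.3, 37.2 and 20.4 in macrophage-like, 32.0, 7.27 and 5.78 in ductal-like and 1.25, 0.324 and 0.653 in acinar-like cells. Its counts were small, with at most 42 UMIs in any sum but those of endothelial-like cells, none's acinar-like cells and none's macrophage-like cells. The exercise ratio in endothelial-like cells was 0.522 (0.353 to 0.755), and over none the ratios were 0.487 (0.354 to 0.679) in endothelial-like, 0.305 (0.174 to 0.528) in fibroblast-like and 0.227 (0.143 to 0.361) in ductal-like cells.

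The Nr4a proteins are nuclear receptors without a known hormone, controlled by how much of them is made. Nr4a1 stood at 17.0, 12.3 and 9.84 CPM in acinar-like cells, 784, 503 and 233 in ductal-like, 501, 362 and 148 in endothelial-like, 647, 358 and 159 in fibroblast-like, 401, 379.9 and 211 in macrophage-like and 443 and 306 in mural-like cells. Exercise was the lowest library in all 5 types with 3 values, in acinar-like cells only with TMM scaling. Exercise ratios were 0.409 (0.338 to 0.490) in endothelial-like, 0.444 (0.378 to 0.519) in fibroblast-like, 0.463 (0.435 to 0.493) in ductal-like and 0.555 (0.464 to 0.661) in macrophage-like cells, and 0.797 (0.690 to 0.918) in acinar-like cells. Nr4a2 stood at 20.5, 28.0 and 18.9 CPM in ductal-like cells, 50.3, 65.0 and 46.4 in macrophage-like, 74.8, 42.2 and 45.1 in endothelial-like, 51.8, 33.6 and 11.2 in fibroblast-like, 47.8 and 74.7 in mural-like and 7.99, 3.71 and 2.85 in acinar-like cells. Its levels did not follow 1 order across types, and exercise was past the fold with an interval below 1 in fibroblast-like cells alone, at 0.333 (0.173 to 0.594) on 14 and 73 UMIs. In mural-like cells the ratio was 1.56 (0.792 to 3.09). Nr4a3 was sparse, with 70, 75 and 3 UMIs in fibroblast-like cells and at most 38 in any other sum. The exercise ratio was 0.0694 (0.0140 to 0.211) there, 0.193 (0.0665 to 0.459) in macrophage-like cells on 6 and 38 UMIs, and 0.282 (0.124 to 0.589) in ductal-like cells on 10 and 32 UMIs. Of the 16 UMIs in mural-like cells of diabetic sedentary, 68.8% came from 1 cell.

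All 3 Kruppel-like factors were past the fold in macrophage-like cells in both comparisons, lower in diabetic sedentary than in none and higher in exercise than in diabetic sedentary. The lower calls over none ended without TMM factors, at log2 ratios of -0.53, -0.49 and -0.22 for Klf2, Klf4 and Klf6. The higher calls of exercise ended as a mean over cells, at 0.38, 0.39 and 0.43, that of Klf4 also with cells thinned to 1000 UMIs, and that of Klf6 also with top doublet scores kept and with no filter on genes or mitochondrial share. Klf2 keeps endothelium and T cells quiescent and answers to blood flow, and it stood at 390.2, 295 and 168 CPM in fibroblast-like cells, 906, 734 and 475 in endothelial-like, 189 and 321 in mural-like, 987, 525 and 835 in macrophage-like, 72.1, 64.5 and 88.4 in ductal-like and 27.8, 20.3 and 12.6 in acinar-like cells. In macrophage-like cells diabetic sedentary was the low library, whereas in endothelial-like and fibroblast-like cells exercise was. Exercise ratios were 1.59 (1.42 to 1.78) in macrophage-like and 1.70 (1.23 to 2.35) in mural-like cells, against 0.647 (0.580 to 0.720) in endothelial-like and 0.568 (0.484 to 0.665) in fibroblast-like cells. The macrophage-like ratio over none was 0.532 (0.480 to 0.589).

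Klf4, a factor of epithelial barriers and of vessel walls, stood at 6.01, 5.63 and 6.05 CPM in acinar-like cells, 99.2, 161 and 152 in ductal-like, 615, 437 and 325 in endothelial-like, 607, 449.6 and 231 in fibroblast-like, 549, 300.0 and 498 in macrophage-like and 93.1 and 33.6 in mural-like cells. Macrophage-like cells again had their lowest level in diabetic sedentary, with 0.547 (0.477 to 0.626) over none and 1.66 (1.44 to 1.92) for exercise. Ratios of exercise were 0.514 (0.449 to 0.586) in fibroblast-like and 0.361 (0.153 to 0.762) in mural-like cells, the latter on 9 and 37 UMIs. Klf6, a tumour suppressor induced by tissue injury, stood at 1509.8, 1033 and 798 CPM in ductal-like cells, 895, 592 and 903 in macrophage-like, 279.8, 227 and 219 in endothelial-like, 273, 185 and 155 in fibroblast-like, 148 and 179 in mural-like and 84.0, 47.9 and 28.8 in acinar-like cells. Its macrophage-like values were again lowest in diabetic sedentary, at 0.661 (0.598 to 0.730) over none and 1.53 (1.37 to 1.70) for exercise. In acinar-like cells exercise was at 0.601 (0.555 to 0.651), which turned to a log2 ratio above 0 when every cell weighed the same (0.16).

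Dual specificity phosphatases remove phosphate from MAP kinases and so end the signal that induced them. Dusp1, with CRE cores and a full CRE in the stretch shown, stood at 819, 988 and 464 CPM in fibroblast-like cells, 765, 769 and 491 in endothelial-like, 1037 and 556 in mural-like, 1928, 1661 and 1303 in macrophage-like, 1166, 2008 and 1176 in ductal-like and 21.1, 38.7 and 36.0 in acinar-like cells. Diabetic sedentary was the highest library in ductal-like and fibroblast-like cells and exercise the lowest in endothelial-like cells. Exercise ratios were 0.470 (0.428 to 0.515) in fibroblast-like, 0.537 (0.442 to 0.649) in mural-like, 0.585 (0.569 to 0.603) in ductal-like and 0.639 (0.575 to 0.710) in endothelial-like cells, and 0.930 (0.862 to 1.0) in acinar-like cells. Over none, diabetic sedentary was higher in acinar-like cells at 1.84 (1.69 to 2.0) and in ductal-like cells at 1.72 (1.63 to 1.82). Dusp6, which acts on ERK in the cytoplasm, stood at 0.338, 1.60 and 2.41 CPM in acinar-like cells, 48.4, 40.3 and 49.5 in ductal-like, 52.6, 97.8 and 80.7 in endothelial-like, 16.6, 23.5 and 32.0 in fibroblast-like, 28.6, 44.6 and 95.2 in macrophage-like and 35.2 and 41.1 in mural-like cells. Unlike most members it was higher past the fold in exercise in macrophage-like cells at 2.13 (1.48 to 3.11) and in acinar-like cells at 1.5 (1.07 to 2.10) (a call kept under 9 of 15 other settings), and diabetic sedentary over none in acinar-like cells at 4.73 (2.61 to 9.28) and endothelial-like cells at 1.86 (1.16 to 3.16). Dusp2, a nuclear phosphatase of leukocytes, had 122, 135 and 51 UMIs in macrophage-like cells, an exercise ratio of 0.461 (0.327 to 0.640), and fewer than 50 UMIs in every other sum.

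RNA decay factors shorten the life of the RNAs induced with them. Zfp36 (tristetraprolin), which binds AU-rich elements and holds the serum response element shown, stood at 744, 964 and 1008 CPM in ductal-like cells, 1119, 1258 and 1233 in macrophage-like, 571, 825 and 549 in endothelial-like, 856, 992 and 372 in fibroblast-like, 745 and 519 in mural-like and 40.9, 38.0 and 30.3 in acinar-like cells. Fibroblast-like, endothelial-like and mural-like cells had the lower level in exercise, and the diabetic libraries were close together in macrophage-like and ductal-like cells. The exercise ratio was 0.375 (0.339 to 0.415) in fibroblast-like and 0.666 (0.602 to 0.735) in endothelial-like cells, but 0.980 (0.904 to 1.06) in macrophage-like and 1.05 (1.01 to 1.08) in ductal-like cells. Its relative Zfp36l1 stood at 355, 529 and 495 CPM in fibroblast-like cells, 258, 446 and 399 in endothelial-like, 365 and 388 in mural-like, 749, 696 and 676 in macrophage-like, 939, 896 and 718 in ductal-like and 28.9, 43.7 and 34.8 in acinar-like cells. It passed the fold in no type for exercise, where the ratios ran from 0.796 (0.738 to 0.858) in acinar-like to 1.06 (0.820 to 1.38) in mural-like cells. Over none, Zfp36l1 was higher in endothelial-like cells at 1.73 (1.40 to 2.17).

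Btg2, an antiproliferative protein that recruits the deadenylase complex and whose promoter stretch holds a full CRE and an Egr site, was lower in exercise in all 6 types. It stood at 201, 103 and 46.2 CPM in acinar-like cells, 2576, 1942 and 781 in ductal-like, 1230.1, 1030.4 and 432 in endothelial-like, 968, 930.5 and 242 in fibroblast-like, 1404, 1175 and 702 in macrophage-like and 1318 and 534 in mural-like cells. Exercise was the lowest library everywhere and lay apart from both others in each type. The exercise ratios were 0.260 (0.230 to 0.294) in fibroblast-like, 0.402 (0.389 to 0.416) in ductal-like, 0.405 (0.334 to 0.488) in mural-like, 0.419 (0.376 to 0.466) in endothelial-like, 0.447 (0.421 to 0.475) in acinar-like and 0.598 (0.542 to 0.659) in macrophage-like cells. Without TMM factors the acinar-like log2 ratio went from -1.16 to -0.47. Over none, diabetic sedentary was past the fold in acinar-like cells only, at 0.515 (0.497 to 0.534). This direction turned, to a log2 ratio of 0.099, with clusters weighted as in none, a weighting that draws on few diabetic sedentary cells.

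Among the Ier genes, Ier2 encodes a nuclear protein and stood at 2438, 1886 and 1424 CPM in ductal-like cells, 1178, 769 and 711 in macrophage-like, 1050.0, 886 and 458 in endothelial-like, 1118, 961 and 403 in fibroblast-like, 533 and 187 in mural-like and 181, 93.9 and 63.6 in acinar-like cells. Exercise was the lowest library in all 5 types, in acinar-like cells only with TMM scaling. Exercise ratios were 0.350 (0.252 to 0.478) in mural-like, 0.419 (0.379 to 0.462) in fibroblast-like and 0.517 (0.464 to 0.575) in endothelial-like cells, and 0.925 (0.833 to 1.03) in macrophage-like cells. Ier3, which alters survival and ERK signals, was highest in ductal-like cells in each library, in exercise by little, and stood at 81.8, 69.6 and 45.5 CPM in fibroblast-like cells, 335, 475 and 189 in endothelial-like, 47.8 and 59.8 in mural-like, 440.4, 424 and 249 in macrophage-like, 1583, 996 and 302 in ductal-like and 4.01, 7.56 and 7.39 in acinar-like cells. The ductal-like ratio of exercise, 0.303 (0.288 to 0.320), was the lowest of the 33 members measured there except for Nr4a3 and Fosl1. Endothelial-like and macrophage-like ratios were 0.397 (0.336 to 0.466) and 0.588 (0.499 to 0.693). Over none, acinar-like cells had 1.89 (1.56 to 2.29) and ductal-like cells 0.629 (0.597 to 0.663), and with clusters weighted as in none both lay within the fold, at log2 ratios of 0.44 and -0.47. Ier5, a regulator of phosphatase 2A and of the heat shock factor, stood at 1.56, 1.58 and 2.27 CPM in acinar-like cells, 20.5, 53.8 and 42.7 in ductal-like, 186, 165 and 80.7 in endothelial-like, 136, 79.7 and 28.8 in fibroblast-like, 249, 268 and 255 in macrophage-like and 67.9 and 37.3 in mural-like cells. Macrophage-like cells held it evenly over the libraries, with an exercise ratio of 0.949 (0.794 to 1.13). Fibroblast-like and endothelial-like cells had 0.361 (0.245 to 0.519) and 0.490 (0.377 to 0.631), and diabetic sedentary over none was 2.63 (1.75 to 4.12) in ductal-like cells, where none had 25 UMIs and the log2 ratio of 1.37 fell to 0.51 with clusters weighted.

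Gadd45 proteins sense stress and act on p38 and on DNA demethylation. Gadd45b stood at 311, 134 and 68.4 CPM in ductal-like cells, 159.5, 143 and 103 in macrophage-like, 36.0, 25.1 and 4.19 in endothelial-like, 157, 124 and 30.4 in fibroblast-like, 65.4 and 33.6 in mural-like and 7.29, 4.93 and 3.37 in acinar-like cells. In all 5 types exercise was the lowest library, in acinar-like cells only with TMM scaling. Exercise ratios were 0.167 (0.0437 to 0.457) in endothelial-like cells on 4 and 47 UMIs, 0.245 (0.170 to 0.345) in fibroblast-like and 0.510 (0.452 to 0.574) in ductal-like cells. Over none, the past-fold value was that of ductal-like cells, 0.431 (0.381 to 0.489). Gadd45g, by contrast, stood at 118, 95.8 and 50.3 CPM in fibroblast-like cells, 74.8, 169.9 and 122 in endothelial-like, 204 and 269 in mural-like, 33.8, 29.7 and 31.7 in macrophage-like, 29.5, 29.8 and 22.5 in ductal-like and 33.6, 17.5 and 20.5 in acinar-like cells. Endothelial-like cells of none were the low ones here, with 2.27 (1.53 to 3.50) for diabetic sedentary, and exercise was past the fold in fibroblast-like cells alone, at 0.525 (0.390 to 0.700). In macrophage-like cells of exercise 46.4% of the 28 UMIs came from 1 cell, and in mural-like cells of exercise 27.8% of 72.

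Ppp1r15a (GADD34) brings phosphatase 1 to eIF2alpha and restarts translation after stress. It stood at 11.6, 8.63 and 6.50 CPM in acinar-like cells, 322, 223 and 106 in ductal-like, 166, 183 and 69.2 in endothelial-like, 124, 102 and 41.6 in fibroblast-like, 193, 176 and 196 in macrophage-like and 169 and 112 in mural-like cells. Macrophage-like cells again held an even level, while exercise was at 0.379 (0.286 to 0.494) in endothelial-like, 0.408 (0.296 to 0.554) in fibroblast-like and 0.474 (0.431 to 0.521) in ductal-like cells. Ppp1r10 (PNUTS), a nuclear partner of phosphatase 1 in transcription termination, stood at 231, 183 and 58.8 CPM in ductal-like cells, 92.8, 54.8 and 47.6 in macrophage-like, 127, 48.1 and 18.9 in endothelial-like, 81.8, 54.4 and 28.0 in fibroblast-like, 55.4 and 37.3 in mural-like and 15.7, 7.56 and 4.95 in acinar-like cells. None was the highest library in all 5 types. Its exercise ratios were 0.320 (0.284 to 0.361) in ductal-like, 0.392 (0.222 to 0.656) in endothelial-like and 0.515 (0.342 to 0.756) in fibroblast-like cells, and over none 0.377 (0.262 to 0.551) in endothelial-like cells.

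Of the remaining nuclear regulators, Csrnp1, a nuclear protein with a cysteine- and serine-rich region, shared with Btg2 the lower level in all 6 types, in acinar-like cells only with TMM scaling. It stood at 79.7, 46.5 and 7.19 CPM in fibroblast-like cells, 119, 75.9 and 44.0 in endothelial-like, 78.0 and 29.9 in mural-like, 147, 125 and 54.4 in macrophage-like, 111, 107 and 65.9 in ductal-like and 6.71, 4.44 and 2.79 in acinar-like cells. Fibroblast-like cells of exercise held 9 UMIs of it and those of diabetic sedentary 101. The exercise ratios were 0.155 (0.0687 to 0.305) in fibroblast-like, 0.383 (0.152 to 0.852) in mural-like, 0.434 (0.305 to 0.607) in macrophage-like, 0.580 (0.401 to 0.824) in endothelial-like, 0.617 (0.544 to 0.699) in ductal-like and 0.628 (0.480 to 0.813) in acinar-like cells, the last of which turned to a log2 ratio of 0.024 without TMM factors. Sertad1, a coactivator of E2F and partner of CDK4, stood at 1.85, 1.18 and 1.20 CPM in acinar-like cells, 95.9, 112 and 55.9 in ductal-like, 177, 103 and 34.6 in endothelial-like, 52.8, 42.4 and 18.4 in fibroblast-like, 42.5, 27.9 and 26.1 in macrophage-like and 32.7 and 11.2 in mural-like cells. Exercise ratios were 0.335 (0.224 to 0.487) in endothelial-like, 0.434 (0.262 to 0.691) in fibroblast-like and 0.501 (0.439 to 0.570) in ductal-like cells, and 0.935 (0.519 to 1.66) in macrophage-like cells. Myc, the growth regulator, stood at 21.3, 19.5 and 19.5 CPM in ductal-like cells, 3.47, 6.50 and 7.93 in macrophage-like, 19.4, 7.48 and 6.29 in endothelial-like, 52.8, 28.6 and 20 in fibroblast-like, 15.1 and 11.2 in mural-like and 4.66, 4.32 and 4.57 in acinar-like cells. Its sums outside acinar-like and ductal-like cells held at most 62 UMIs, and exercise passed the fold in none of the 4 types where it was measured, with 0.999 (0.769 to 1.30) in ductal-like cells. Over none, fibroblast-like cells had 0.541 (0.367 to 0.800).

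Sorted by how many types they moved in, most members fell between the extremes. A member counted as moved where its ratio was past 1.5-fold and its interval did not include 1, and 4 measured types were required. For exercise over diabetic sedentary, 2 members, Btg2 and Csrnp1, were lower in all types, where 0.117% of 7697 genes were (0.195% were higher in all), with the acinar-like direction of Csrnp1 turning without TMM factors. Btg2 lies at chr1:134075170-134079120 and Csrnp1 at chr9:119971163-119984658, both on the minus strand (GENCODE M21, GRCm38). Nr4a2 and Gadd45g moved in fibroblast-like cells only (28.1% of genes moved in 1 type), Fosl2, Zfp36l1 and Myc in no type (58.2% of genes), and 25 members in several types but not all. Fosl1 and Dusp2 were measured in too few types. For diabetic sedentary over none, 0 members moved in all types (0.268% of 7094 genes were lower and 0.395% higher in all). Fos (ductal-like, higher), Klf2 (macrophage-like, lower), Btg2 (acinar-like, lower), Gadd45b (ductal-like, lower) and Myc (fibroblast-like, lower) moved in 1 type (26.7% of genes), and Junb, Jund, Zfp36 and Ppp1r15a in none (61.9%). With clusters weighted as in none, Fos and Btg2 moved in no type. Exercise over none had 11 members lower in all types where they were measured, against 1.17% of genes: Jun, Atf3, Egr1, Egr3, Nr4a1, Nr4a3, Btg2, Ier2, Gadd45b, Ppp1r10 and Csrnp1. Without TMM factors Nr4a3 alone was lower in all types, with cells thinned to 1000 UMIs 5 members were (Jun, Atf3, Nr4a1, Btg2 and Csrnp1), and as a mean over cells 7 were. Of 16 other settings for exercise over diabetic sedentary, Btg2 was lower in all types under 13 and Csrnp1 under 10, while Nr4a2 and Gadd45g moved in exactly 1 type under 8 and 9. With 1 library per group the difference between types was not tested.

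The type with the most RNA of a member was mostly the same in each library. Levels were scaled within each type, so their order across types is a description. The estimated share of acinar RNA was also smaller in ductal-like than in endothelial-like, fibroblast-like or macrophage-like cells of each library. Its part in the order was not tested. Of the 34 members, 20 were highest in the same one of the 5 types in all 3 libraries: 14 in ductal-like, 4 in macrophage-like, 1 (Egr3) in endothelial-like and 1 (Myc) in fibroblast-like cells. For 10 of them the interval of the highest type lay apart from that of the next in every library, which were Atf3, Egr1, Ier2, Ier3, Jun, Junb, Jund and Maff in ductal-like and Dusp2 and Zfp36 in macrophage-like cells. Fos, Btg2, Nr4a1, Ppp1r10, Zfp36l1 and Fosl1 were also highest in ductal-like cells throughout, with overlapping intervals in at least 1 library, as were Fosl2 and Ier5 in macrophage-like cells. Egr2, Klf6, Ppp1r15a and Dusp1 changed between ductal-like and macrophage-like cells by library with intervals apart each time.

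The sums were also read cell by cell. Each cell was thinned to 1000 UMIs, which left out 6, 33 and 57 endothelial-like and 3, 35 and 58 fibroblast-like cells that held fewer. It also left out 1, 16 and 214 ductal-like, 4, 12 and 32 macrophage-like and 48, 49 and 348 acinar-like cells. In the diabetic libraries 7 and 10 mural-like cells were left out. The thinned values thus describe the deeper cells, most of all in ductal-like cells of exercise. The median number of the 34 genes seen in an endothelial-like cell was 9, 9 and 4, and in a fibroblast-like cell 8, 9 and 4. Cells with 2 members or fewer made up 10.3%, 12.4% and 37.5% of endothelial-like and 18.3%, 14.9% and 35.1% of fibroblast-like cells. Those with 10 or more made up 44.0%, 41.3% and 15% and 38.6%, 41.8% and 11.4%. Ductal-like cells had medians of 11, 11 and 9, macrophage-like cells 10, 9 and 8, mural-like cells of the diabetic libraries 5 and 4, and acinar-like cells 1 in each library. Of ductal-like cells 65.5%, 66.2% and 46.0% had 10 or more members, and 5.42%, 4.04% and 12.1% had 2 or fewer. Of macrophage-like cells 51.6%, 45.8% and 40.9% had 10 or more, and of mural-like cells of the diabetic libraries 25.4% and 17.9%. In the exercise library cells with many members thus made up a smaller share of endothelial-like, fibroblast-like and ductal-like cells and were still present.

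**Figure D3:**
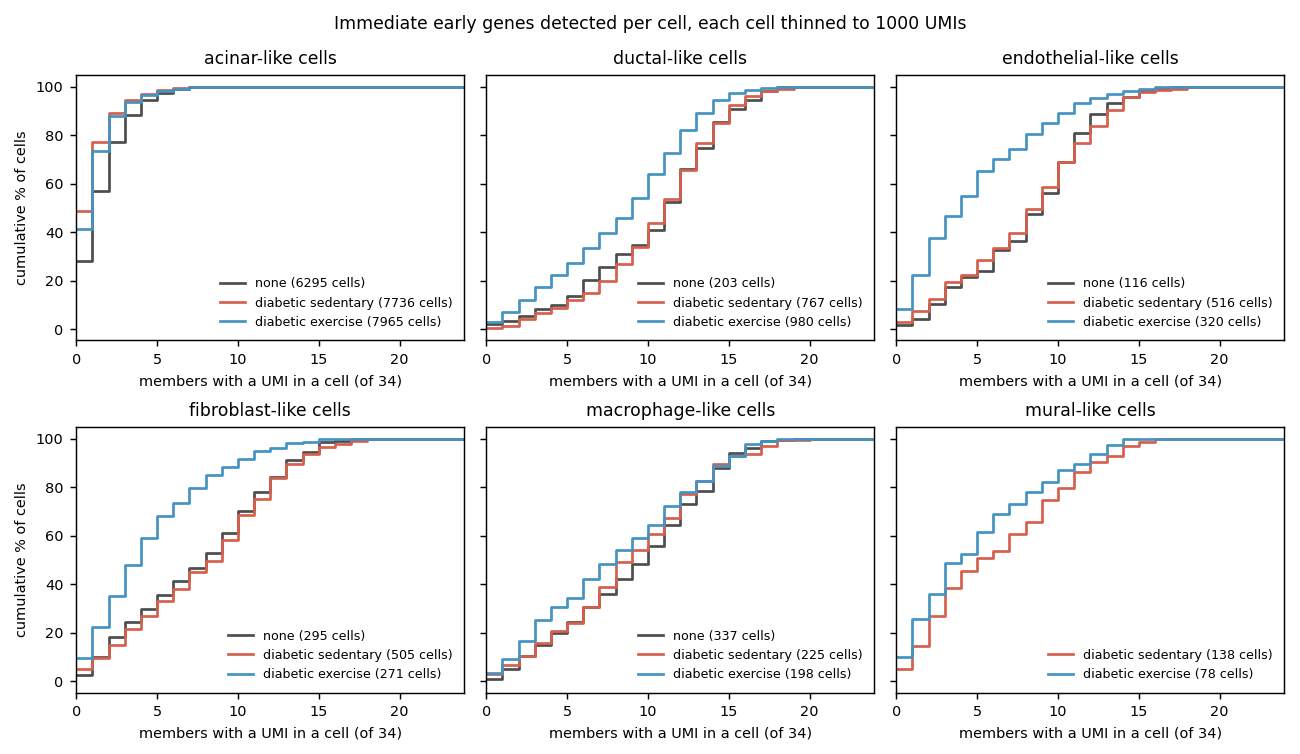
Cumulative share of cells (vertical axis, percent) by the number of the 34 genes with a UMI in a cell (horizontal axis), each cell thinned to 1000 UMIs, 1 line per library and 1 panel per cell type. The exercise line lies to the left of both others in endothelial-like and fibroblast-like cells, with medians of 4 against 8 or 9. It also lies mostly to the left in ductal-like cells, with medians of 9 against 11, and close to diabetic sedentary in macrophage-like cells.

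By gene, Btg2 was seen in 57.8%, 53.9% and 25.3% of thinned endothelial-like cells, 44.7%, 45.5% and 14.4% of fibroblast-like, 57.0%, 56.4% and 34.8% of macrophage-like and 68.0%, 68.3% and 41.9% of ductal-like cells. Without thinning the Btg2 shares were 77.9%, 72.9% and 37.4% in endothelial-like and 73.2%, 63.7% and 28.6% in fibroblast-like cells. Fos was seen in 59.5%, 65.5% and 41.9% of endothelial-like and 58.3%, 70.9% and 37.6% of fibroblast-like cells after thinning (82.8%, 78.9% and 52.0% and 78.5%, 83.5% and 54.1% before). Acinar-like cells had 16.0%, 12.8% and 13.2% for Fos and 16.2%, 7.83% and 5.93% for Btg2, and a share at or below these could not be told from free RNA. Klf2 shares were 4.93%, 5.87% and 7.04% in ductal-like and 2.94%, 1.98% and 1.76% in acinar-like cells, while in macrophage-like cells they were 44.5%, 33.8% and 44.4% and were lowest in diabetic sedentary, as the summed level was.

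Genes around the immediate early response were read from 4 further lists. For exercise over diabetic sedentary the shares of all genes lower and higher past the fold, against which the counts are set, were 16.2% and 11.6% in endothelial-like, 13.5% and 10.4% in fibroblast-like, 11.6% and 12.0% in macrophage-like, 24.7% and 12.8% in mural-like, 6.38% and 9.24% in ductal-like and 10.2% and 15.3% in acinar-like cells. Of 26 upstream kinases and factors, which carry the signal (Hras, Map2k2, Mapk3, Elk3 and others), at most 3 were lower and at most 3 higher past the fold in any type, and 0 either way in ductal-like cells. Their medians ran from -0.21 in acinar-like to 0.15 in fibroblast-like cells. Mapk3 (ERK1) stood at 63.7, 130.3 and 129.9 CPM in endothelial-like cells of none, diabetic sedentary and exercise. Without TMM factors 12 of the 26 upstream genes were higher in acinar-like and 7 of 24 in fibroblast-like cells. All genes then had medians of 0.63 and 0.17 in these types, the former itself past the fold, so the shares above do not apply to counts without TMM factors. Feedback inhibitors, a list of 17, were lower past the fold in 7 of 14 measured in endothelial-like cells (1 higher, median -0.69), 6 of 12 in fibroblast-like (0 higher, -0.70), 4 of 9 in macrophage-like (0 higher, -0.47), 6 of 8 in mural-like (0 higher, -0.96), 4 of 16 in ductal-like (0 higher, -0.23) and 3 of 12 in acinar-like cells (2 higher, -0.0028). In acinar-like cells 0 were lower and 6 higher without TMM factors, with a median of 0.69 against 0.63 for all genes. Socs3, which blocks cytokine receptors, stood at 302, 391 and 136 CPM in fibroblast-like, 180.1, 228 and 110.0 in endothelial-like and 161, 321 and 191 in macrophage-like cells, highest in diabetic sedentary in all 3 types. Nfkbia, the inhibitor of NF-kappaB, stood at 1139.9, 895 and 536 CPM in macrophage-like cells and had an exercise ratio of 0.599 (0.535 to 0.669).

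Delayed early and other stimulus-induced genes, a list of 34, were lower past the fold in 12 of 28 in endothelial-like (3 higher, median -0.47), 13 of 27 in fibroblast-like (3 higher, -0.55) and 12 of 29 in ductal-like cells (3 higher, -0.33; 8 lower without TMM factors). In mural-like cells 5 of 19 were lower and 3 higher, with a median of 0.13. Without TMM factors 4 were lower and 8 higher there, with a median of 0.40 against 0.15 for all genes. In macrophage-like cells 6 of 29 were lower and 5 higher (-0.14), and in acinar-like cells 3 of 30 were lower and 10 higher (0.31), or 1 and 24 without TMM factors. Cebpd, a factor of the acute phase, stood at 1166, 1241 and 544 CPM in fibroblast-like cells, an exercise ratio of 0.439 (0.403 to 0.477). The chemokine Cxcl2 stood at 2001, 1694 and 720.5 CPM in macrophage-like cells, at 0.425 (0.388 to 0.466), and it is among the genes that led their cluster. Ccn1, a matrix-bound target of YAP, was at 0.494 (0.475 to 0.514) in ductal-like and 1.34 (1.02 to 1.77) in mural-like cells.

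Heat shock genes, another group that dissociation is known to induce, were read in both comparisons. With TMM scaling the median of larger size lay between none and diabetic sedentary in endothelial-like and macrophage-like cells. In acinar-like cells the medians were close, at -0.16 over none and -0.19 for exercise, as in ductal-like cells, at -0.10 and -0.13. For exercise over diabetic sedentary 1 of 16 was lower and 2 higher in endothelial-like cells (median -0.01), and in macrophage-like cells 1 of 15 was lower and 6 were higher (0.47). In fibroblast-like cells 5 of 16 were lower and 2 higher (-0.35), or 2 lower and 3 higher without TMM factors (-0.13 against 0.17 for all genes). Over none, diabetic sedentary was lower in 11 of 16 in endothelial-like (-0.86), 10 of 16 in macrophage-like (-0.78) and 7 of 16 in fibroblast-like cells (-0.41), with 0 higher in each, where 13.8%, 13.3% and 11.9% of all genes were lower and 21.2%, 13.3% and 15.3% higher. Without TMM factors the medians were -0.51, -0.41 and -0.13, against 0.41, 0.37 and 0.30 for all genes, and 8, 6 and 6 genes were lower. Hsp90ab1 stood at 959, 691 and 438 CPM in endothelial-like and 1009, 674 and 435 in macrophage-like cells. It was the 1 gene of the list lower past the fold for exercise in each of these types, so its fall there is not that of the list. In endothelial-like cells the larger median of heat shock genes thus lay between none and diabetic sedentary, and that of immediate early genes between diabetic sedentary and exercise. In fibroblast-like cells the heat shock medians of both comparisons were close, at -0.41 and -0.35, and at -0.13 for each without TMM factors. The cause was not tested.

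Within ductal-like cells the exercise median was -0.79 in cluster 6, led by Spp1 and Ambp (32 members measured, all genes -0.14), and -0.27 in cluster 14 (32 members, all genes 0.16). In acinar-like clusters with cells of both diabetic libraries it ran from -1.66 to -0.25, where the medians of all genes ran from -1.06 to -0.06. The members lay level with all genes in cluster 9 (-0.25 against -0.24) and cluster 12 (-0.56 for both), and below them in the other acinar-like clusters. Across the other settings the exercise medians ran from -1.03 to -0.70 in endothelial-like, -1.31 to -0.95 in fibroblast-like, -0.76 to -0.39 in ductal-like, -0.67 to -0.35 in mural-like, -0.48 to -0.14 in macrophage-like cells, and in acinar-like cells from -0.56 to 0.36. In each of the settings that gave a value, in every type and in both comparisons, the members' median lay below that of all genes.

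**Figure D4:**
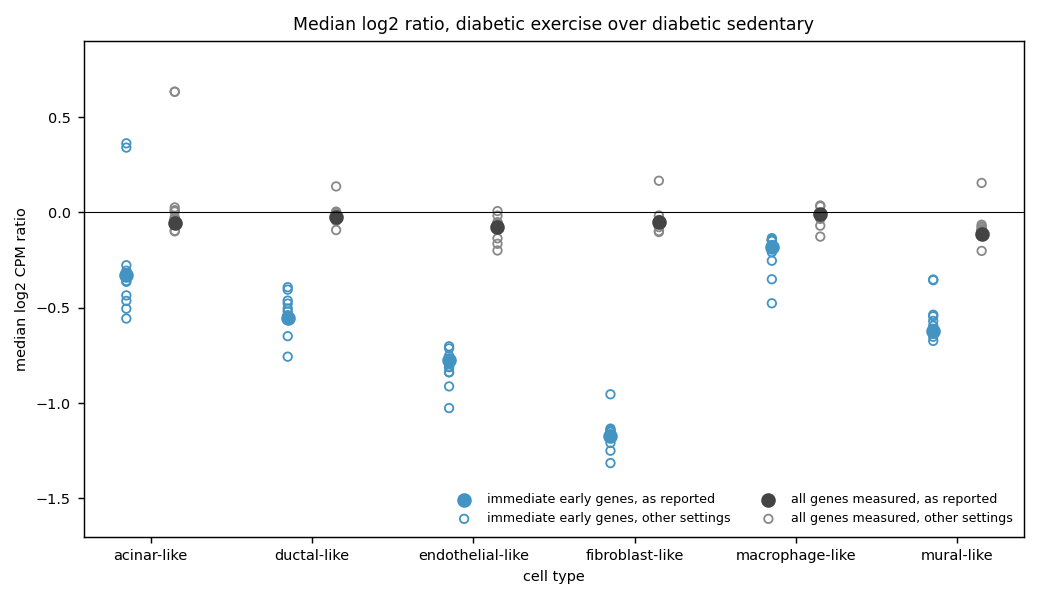
Median log2 CPM ratio (vertical axis) of diabetic exercise over diabetic sedentary by cell type (horizontal axis): blue for the immediate early genes and grey for all genes measured, filled for the values reported and open for the other settings. The blue points of fibroblast-like cells lie between -1.31 and -0.95, and acinar-like cells are the type whose blue points cross 0.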

How the data were processed

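Droplet RNA-seq of dissociated mouse pancreas gave 3 libraries, 1 per group. The authors deposited raw UMI counts per gene and barcode, made with Cell Ranger 7.1.0 per the submitters' processing notes and 6.1.2 per the file headers; the genome build was not given in the sources used here, and all 55450 feature IDs are in GENCODE M21 (GRCm38). Barcodes with at least 500 UMIs, 200 genes and at most 20% mitochondrial UMIs were kept. Scrublet's automatic threshold marked 0.0109%, 0% and 0% of cells and so did not work, and the top 5% of scores in each library (458, 580 and 793 cells) were removed instead. Cells were clustered (2000 variable genes without the 34 members, 30 components, 15 neighbours, Leiden resolution 1) and clusters named from fixed markers. Types with at least 50 cells in both libraries were used.

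UMIs were summed per type and library and scaled to CPM with edgeR's TMM factors within each type, so levels in different types rest on separate scalings. Ratios carry exact conditional Poisson 95% intervals, which cover counting error only; with 1 library per group no test was made. A gene was measured with 20 UMIs over both libraries, and the fold was 1.5. Values per library are given for members with at least 100 UMIs over the 3 libraries in at least 3 types and for those that moved in all types or in 1; other members are given by counts, and each other list by its counts, its median and some of its genes with the most UMIs. The members and lists were chosen with earlier results of these data known. Scripts were tested on simulated data. Other settings are named in the closing section. Software was Python 3.11.15, numpy 2.4.6, scipy 1.17.1, pandas 2.3.3, scanpy 1.11.5, anndata 0.12.19, scikit-learn 1.9.0, leidenalg 0.10.2, igraph 0.11.9, matplotlib 3.10.9, R 4.3.3 and edgeR 4.0.16.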

Additional observations from a re-analysis of the deposited data

Results flagged for a closer look

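Some members were past 1.5-fold in one direction in one cell type and in the other direction in another, with both counting intervals away from 1. Only the type with the lowest and the type with the highest ratio are given, and with 1 library per group the difference between types was not tested. For diabetic sedentary over none, Fosl2 had a ratio of 0.493 in fibroblast-like and 1.56 in ductal-like cells, the latter at a log2 ratio of 0.53 and within the fold with clusters weighted as in none. Klf4 had 0.547 in macrophage-like and 1.63 in ductal-like cells; the ductal-like call ended with that weighting (log2 0.56) and the macrophage-like one without TMM factors (log2 -0.49). Ier3 had 0.629 in ductal-like and 1.89 in acinar-like cells, and both calls ended with clusters weighted (log2 -0.47 and 0.44). Ier5 had 0.588 in fibroblast-like and 2.63 in ductal-like cells; the former ended without TMM factors (log2 -0.48) and the latter with clusters weighted (log2 0.51). Gadd45g had 0.519 in acinar-like and 2.27 in endothelial-like cells.

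For diabetic exercise over diabetic sedentary, Fosb had a ratio of 0.443 in fibroblast-like and 1.61 in ductal-like cells, the latter within the fold as a mean over cells (log2 0.57) and with clusters weighted (log2 0.47). Klf2 had 0.568 in fibroblast-like and 1.70 in mural-like cells. Klf4 had 0.361 in mural-like and 1.66 in macrophage-like cells, the latter within the fold as a mean over cells (log2 0.39). Klf6 had 0.601 in acinar-like and 1.53 in macrophage-like cells; the acinar-like call ended without TMM factors (log2 -0.043) and turned as a mean over cells (log2 0.16), where the macrophage-like one ended (log2 0.43). Both comparisons use the diabetic sedentary library.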

How the results depend on the processing

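No paired analysis was possible because each group holds 1 library. The members' medians were recomputed under the other settings for all 3 comparisons, their counts past the fold and single ratios for all but exercise over none, and for that one also the count of members moved in all types. All acinar-RNA-rich barcodes in place of acinar-like cells, the recount of members per pattern and the 4 other lists without TMM factors were chosen after seeing the data. Levels of single genes and clusters within a type have no other setting. Of the medians of immediate early genes by type, comparison and setting, 218 stayed within the main value's spread, 19 moved and 1 reversed. The acinar-like median for diabetic sedentary over none was -0.97 with top doublet scores kept, -0.84 as a mean over cells of CPM and 0.016 with clusters weighted as in the denominator library; for exercise over diabetic sedentary it was 0.36 with library totals without TMM and 0.34 as a mean over cells. Totals without TMM gave, for diabetic sedentary over none, 0.087 in ductal-like, -0.0066 in endothelial-like, -0.051 in fibroblast-like and 0.18 in macrophage-like cells. The mean over cells gave -0.76 in ductal-like cells for exercise and 0.045 in fibroblast-like cells for diabetic sedentary over none, and resolution 2 gave -0.48 in macrophage-like cells for exercise. For exercise over none, totals without TMM gave -0.32 in acinar-like, -0.29 in ductal-like, -0.63 in endothelial-like, -0.89 in fibroblast-like and -0.15 in macrophage-like cells, the mean over cells -0.38 in acinar-like cells, and clusters weighted -1.58 in acinar-like and -0.90 in ductal-like cells. Acinar RNA subtracted gives no value for acinar-like cells.

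Counts of members per pattern depended on the setting. For exercise over diabetic sedentary, members moved in all types numbered 1 with doublets kept, 1 with cells thinned to 1000 UMIs and 0 with no filter on genes or mitochondrial share, without TMM and as a mean over cells. Members moved in one type numbered 1 with a mitochondrial ceiling of 10%, 4 at resolution 2, with acinar RNA subtracted and with acinar markers left out of totals, 7 without TMM and 0 as a mean over cells, and members moved in no type numbered 1 at resolution 2 and without TMM. For diabetic sedentary over none, 1 member (Egr3) moved in all types at resolution 2. Those moved in one type numbered 9 with libraries clustered apart, 10 thinned, 12 with acinar RNA subtracted, 16 without TMM, 16 as a mean over cells and 10 with clusters weighted, and those moved in no type 2 with doublets kept, 2 thinned, 1 without TMM, 2 as a mean over cells and 7 with clusters weighted. For exercise over none, members moved in all types numbered 5 thinned, 1 without TMM and 7 as a mean over cells.

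Of single log2 ratios, 4471 stayed within the main value's counting interval, 672 moved out of it and 20 reversed. The first count holds 350 from a minimum of 1 UMI and 350 from a minimum of 50, settings that leave a ratio as it is. Without TMM factors 195 stayed, 151 moved and 4 reversed, and as a mean over cells 177 stayed, 164 moved and 9 reversed. In acinar-like cells, exercise over diabetic sedentary reversed without TMM for Jun (0.032), Klf2 (0.000681), Ppp1r10 (0.083) and Csrnp1 (0.024), and as a mean over cells for Jun (0.19), Egr1 (0.10), Egr2 (0.057), Nr4a3 (0.28), Klf2 (0.000704), Klf6 (0.16), Ppp1r10 (0.013) and Csrnp1 (0.16). With clusters weighted, diabetic sedentary over none reversed there for Egr1 (0.016), Egr2 (0.40), Nr4a3 (0.14) and Btg2 (0.10). Thinning reversed Maff (0.084) and Egr2 (0.084) in endothelial-like and Ppp1r10 (0.15) in macrophage-like cells for diabetic sedentary over none, and the mean over cells reversed Atf3 (0.060) in mural-like cells for exercise. The cause of these moves was not tested.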

Other observations

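Types with under 50 cells in at least 1 library entered no comparison, and their summed level of the 34 genes is given here as CPM without TMM factors, from 1 library per group. T-like cells held 3472, 8418 and 9538 CPM (188, 20 and 34 cells in none, diabetic sedentary and diabetic exercise), and neutrophil-like cells 5977, 10501 and 12187 CPM (14, 23 and 13 cells). In both of these leukocyte types none was the low library at this scaling. In ductal-like, endothelial-like, fibroblast-like and macrophage-like cells none also lay below diabetic sedentary without TMM factors, and above it with them. Mesothelial-like cells held 6397, 18045 and 3447 CPM (38, 11 and 15 cells), with diabetic sedentary the high library. Erythroid-like cells, which have little transcription left, held 1328, 732 and 564 CPM (51, 46 and 44 cells). Islet-endocrine-like cells held 1782 and 2344 CPM in the diabetic libraries (67 and 15 cells).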
